A study of Mus musculus with 14 samples.

Results

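Extracellular matrix is remodelled by secreted and membrane-bound metalloproteinases, restrained by tissue inhibitors of metalloproteinases (TIMPs) and stiffened by lysyl oxidases, and 46 genes of these families are described here in subcutaneous fat of running and sedentary mice. They were chosen by name: genes whose platform symbol starts with Mmp or Adamts, the TIMP genes Timp1 to Timp4, and Lox with its relatives Loxl1, Loxl3 and Loxl4. The 46 genes were measured by 86 probe sets, among 18193 genes with a symbol of their own on the array, and the brightest probe set over 14 arrays, by mean, stands for each gene. Of these, 32 passed a filter on mean signal (at least 389.8 units) and were tested with 12944 genes in all, and 14 were too dim and were tested only in a fit with no filter. Adamts2 and Loxl2 were not analysed here.

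RNA was taken from subcutaneous white fat. The animals were male mice of C57BL/6, an inbred laboratory strain with no transgene or drug named in the labels, aged 12 weeks. Exercised samples (7 arrays) were from mice kept with a running wheel for 11 days, and sedentary samples (7 arrays) were from control mice labelled with the same 11 days. The labels do not say whether each array came from its own mouse, so each p-value reflects only how far these arrays differ within a group, which may be technical. In whole tissue, fewer cells of a type and less RNA per cell cannot be told apart.

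Matrix metalloproteinases (MMPs) are zinc enzymes made as inactive proenzymes that together cut most matrix proteins, collagenases acting on fibrillar collagen and gelatinases on its unwound form. ADAMTS enzymes cut proteoglycans such as versican and aggrecan or trim procollagens, while ADAMTS-like proteins lack the enzyme domain. TIMPs bind the active site of these enzymes, and lysyl oxidases crosslink collagen and elastin. In fat this system lets the matrix around adipocytes be reshaped as cells grow, shrink or are replaced.

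Of the MMP genes, 9 lie side by side on mouse chromosome 9, in the order Mmp13, Mmp12, Mmp1b, Mmp3, Mmp1a, Mmp10, Mmp8, Mmp20 and Mmp7, with 1 other protein-coding gene between them in the RefSeq table of GRCm38.p6. Timp1, Timp3 and Timp4 each lie within the span of a synapsin gene (Syn1, Syn3 and Syn2), and Adamts1 and Adamts5 are neighbours, as are Adamts15 and Adamts8. RefSeq promoter windows of GRCm38.p6, from 250 bases before to 50 bases after the transcription start, were matched to 28 of the 46 genes. Windows of 5 genes are printed because their genes are those with single arrays or group differences described below: Mmp3 (chr9:7445572-7445871, plus strand) and Mmp13 (chr9:7272264-7272563, plus strand) from the cluster, and Timp1 (chrX:20869916-20870215, plus strand), Timp3 (chr10:86300162-86300461, plus strand) and Timp4 (chr6:115252156-115252455, minus strand) among the inhibitors. Each reads 5′ to 3′ along its gene, and capitals mark matches to TGANTCA (the AP-1 site), TATAAA (the TATA box), GGGCGG or its reverse complement (the Sp1 site) and CACGTG (an E-box), searched on both strands.
Mmp3: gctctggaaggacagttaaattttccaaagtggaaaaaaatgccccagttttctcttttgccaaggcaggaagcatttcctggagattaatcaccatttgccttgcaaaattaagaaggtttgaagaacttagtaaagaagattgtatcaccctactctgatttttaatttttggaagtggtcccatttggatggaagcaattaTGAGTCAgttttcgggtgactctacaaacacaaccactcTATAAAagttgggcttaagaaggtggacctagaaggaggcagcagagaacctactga
Mmp13: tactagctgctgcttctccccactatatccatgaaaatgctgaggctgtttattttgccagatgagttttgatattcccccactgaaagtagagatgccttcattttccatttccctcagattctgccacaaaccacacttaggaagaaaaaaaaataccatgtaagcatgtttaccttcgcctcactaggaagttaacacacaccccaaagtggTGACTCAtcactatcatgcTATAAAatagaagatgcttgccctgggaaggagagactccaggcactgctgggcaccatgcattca
Timp1: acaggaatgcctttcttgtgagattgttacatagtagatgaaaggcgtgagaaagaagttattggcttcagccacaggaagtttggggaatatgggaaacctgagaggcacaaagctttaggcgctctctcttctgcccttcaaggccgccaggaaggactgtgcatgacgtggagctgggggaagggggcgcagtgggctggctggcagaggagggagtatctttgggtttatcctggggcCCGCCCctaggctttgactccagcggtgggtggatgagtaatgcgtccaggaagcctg
Timp3: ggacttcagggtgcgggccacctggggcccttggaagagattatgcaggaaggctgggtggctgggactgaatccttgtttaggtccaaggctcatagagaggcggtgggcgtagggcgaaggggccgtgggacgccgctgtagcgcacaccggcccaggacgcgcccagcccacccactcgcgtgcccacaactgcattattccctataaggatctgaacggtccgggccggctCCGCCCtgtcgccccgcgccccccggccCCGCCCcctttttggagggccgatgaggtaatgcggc
Timp4: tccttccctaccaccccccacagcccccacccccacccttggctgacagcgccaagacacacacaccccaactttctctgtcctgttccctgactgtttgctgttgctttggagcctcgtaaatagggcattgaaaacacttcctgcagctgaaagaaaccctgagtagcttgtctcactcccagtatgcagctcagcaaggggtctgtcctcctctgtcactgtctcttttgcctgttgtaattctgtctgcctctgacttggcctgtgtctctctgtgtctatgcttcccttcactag

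TGANTCA was found in 8 of the 9 cluster genes (all but Mmp8) and in none of the other 19 matched genes, against 7.81% of 32851 promoter windows of all genes. TATAAA was found in 9 of 9 cluster genes and in 11 of 28 matched genes, against 13.6% of all windows. In the cluster these matches began at positions from -123 (in Mmp7, which had another at -26) to 4 (in Mmp12). That of Mmp8 began at -3 on the minus strand. They are sequence matches, and whether they act as TATA boxes was not tested. GGGCGG was found in 0 of 9 cluster genes and in 17 of 28 matched genes, among them Timp1, Timp2 and Timp3, against 35.7% of all windows. CACGTG was found only in Mmp7 among the 28, against 7.15%. In Mmp3 the TGANTCA match began at position -46 from the start site and in Mmp13 at -35. Timp4 held none of the 4 motifs in its window.

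**Figure D1:**
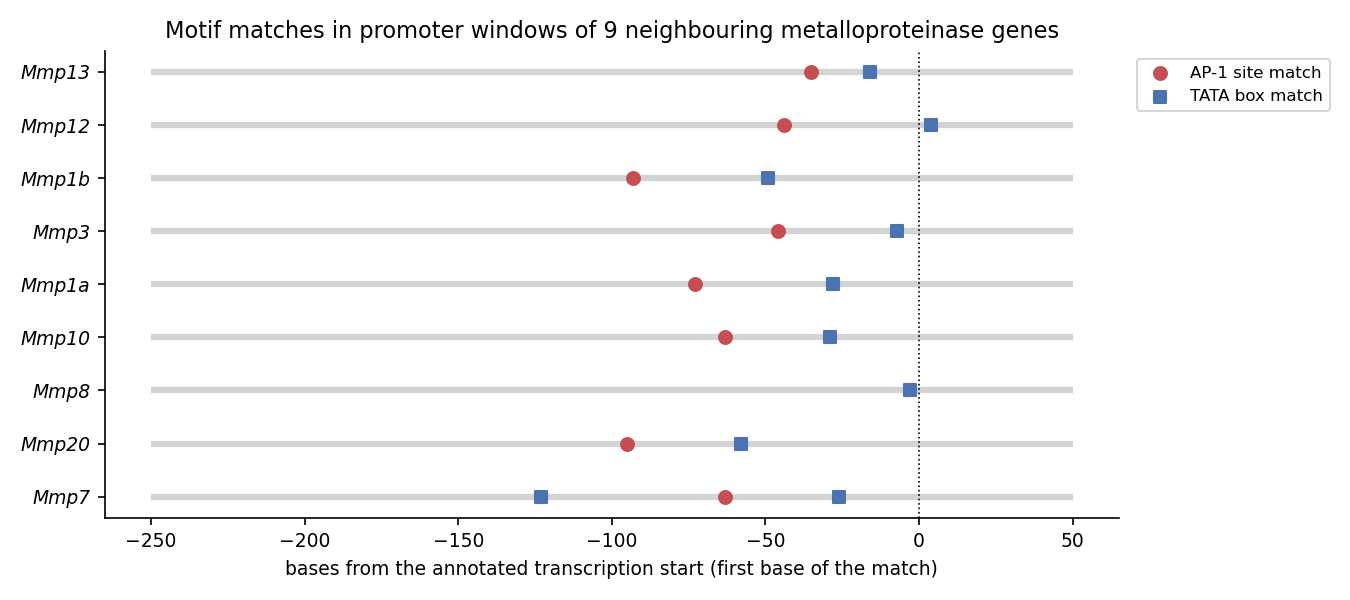
Positions of AP-1 site (red circles) and TATA box (blue squares) matches in the promoter windows of the 9 neighbouring MMP genes; the x axis gives bases from the annotated start (dotted line), and each grey line is 1 gene. Where both were found, an AP-1 match lies upstream of a TATA match, and Mmp8 has only the latter.

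Comparing exercised with sedentary tissue asked whether running altered the matrix-remodelling genes of the depot. No gene of these families changed past the threshold: limma called 0 of the 32 tested genes higher, where 4.002% of all genes tested were called higher, and 0 of 32 lower, where 1.53% of all genes were. At an unadjusted p under 0.05 there were 2 higher and 4 lower genes, against 11.3% and 10.5% of all genes tested, a share near the background. The 7 exercised values were apart from the 7 sedentary values in 0 of the 32, against 2.68% of all genes tested. The median difference was -0.083 on the log2 scale over the 32 genes and -0.028 over all genes tested, with 19 of 32 (59.4%) and 55.0% negative. Differences are exercised minus sedentary on the log2(signal + 46.7) scale throughout, which understates changes of dim genes.

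**Figure D2:**
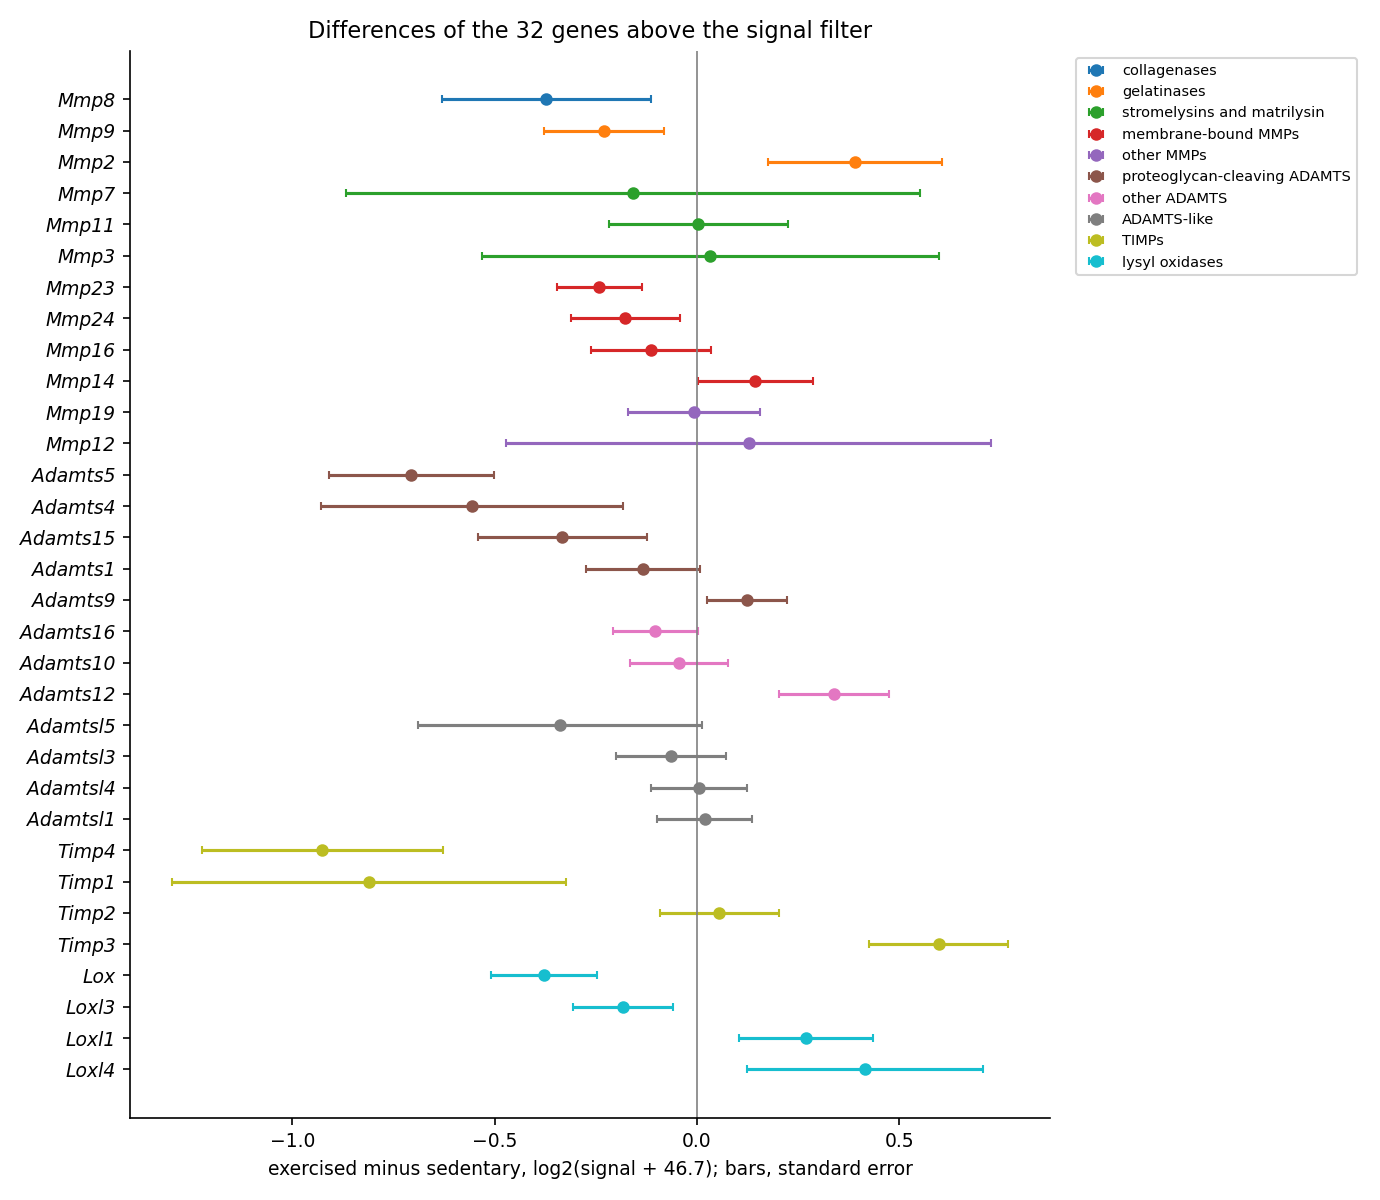
Exercised minus sedentary difference of the 32 tested genes (x axis, log2(signal + 46.7); bars, standard error), coloured by class. Timp4, Timp1 and Adamts5 lie lowest and Timp3 highest, with values of -0.93, -0.81, -0.71 and 0.60; none passed the threshold.

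Of the 4 inhibitors, 2 had positive and 2 had negative differences, none past the threshold. Timp3, the inhibitor that stays bound to the matrix and also restrains ADAM17, had signals from 3130 to 8253 (median 6371) on sedentary and from 6869 to 11221 (median 8886) on exercised arrays. All 7 exercised values were above the sedentary median, and 6 of them above the highest sedentary value, but exercised array 2 lay within the sedentary range. The difference was 0.60 (SE 0.17, adjusted p = 0.0541), with means of 6253 ± 1542 (SD, n = 7) and 9269.9 ± 1454 (n = 7). Its 3 other probe sets differed by 0.58, 0.41 and 0.35.

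Timp4, an inhibitor abundant in fat and heart, had signals from 3198 to 20971 (median 9536) on sedentary and from 3585 to 6297 (median 4601) on exercised arrays. All exercised values were below the sedentary median, and 6 of 7 sedentary values were above the highest exercised one; sedentary array 5, the lowest of all, prevented separation. The difference was -0.93 (SE 0.30, adjusted p = 0.0837), and the other probe set differed by -0.92 (SE 0.28). Without sedentary array 7, which had the highest signal, the difference of Timp4 was -0.71 (SE 0.25, adjusted p = 0.0903). Timp1, an inhibitor that is induced in inflamed tissue, had signals of 10897 on sedentary array 5 and 3108 on sedentary array 4, from 631 to 1270.3 on the other 5 sedentary arrays, and from 592 to 1149 on exercised arrays. Its difference of -0.81 (SE 0.49, adjusted p = 0.349) rested on those arrays: it was -0.36 (SE 0.29, adjusted p = 0.531) without sedentary array 5, and -0.076 (adjusted p = 0.877) without sedentary arrays 4 and 5 together. Timp2, which also takes part in the activation of MMP2, had medians of 22441 and 19643 and a difference of 0.056 (SE 0.15, adjusted p = 0.854), which was -0.052 after quantile normalisation and -0.068 without sedentary array 5. Its 4 other probe sets above the filter differed by between -0.18 and 0.029. Of the synapsin genes around the other inhibitors, Syn1 and Syn2 differed by 0.067 and 0.16, neither past the threshold, and Syn3 was under the filter.

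**Figure D3:**
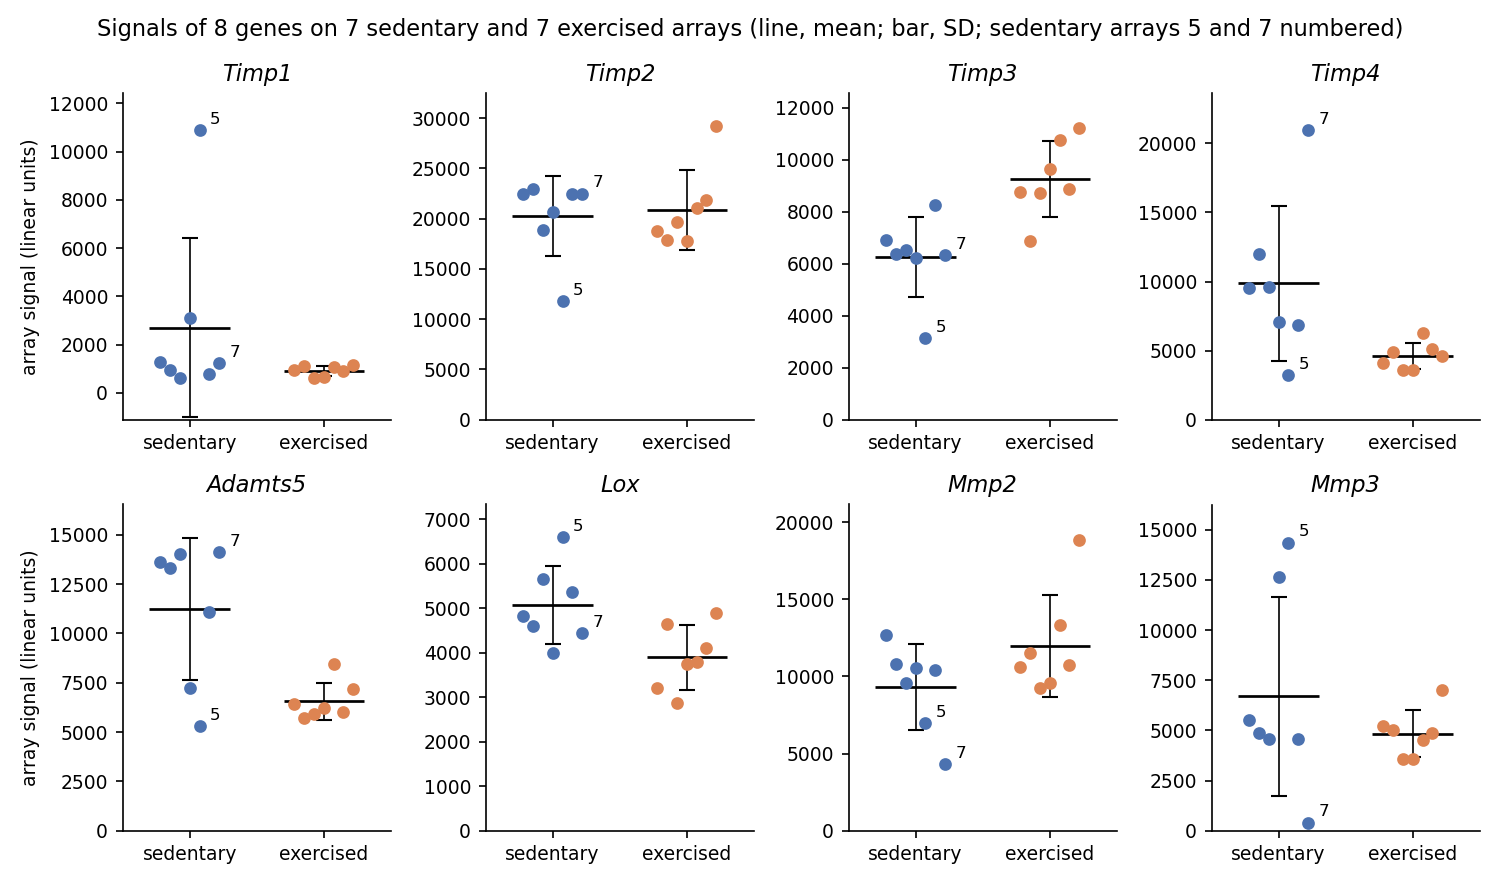
Array signals (y axis, linear units) of Timp1 to Timp4, Adamts5, Lox, Mmp2 and Mmp3 on 7 sedentary (blue) and 7 exercised (orange) arrays; lines are means and bars SD, and sedentary arrays 5 and 7 are numbered. Timp3 is higher on most exercised arrays and Timp4 and Adamts5 lower, while Timp1 and Mmp3 spread more widely among sedentary than among exercised arrays.

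Among the proteoglycan-cleaving ADAMTS genes, 1 of 5 tested had a positive difference and 4 a negative one, with a median of -0.33. Adamts5, the main aggrecanase of mouse cartilage and a versican-cutting enzyme, had signals from 5308 to 14126 (median 13308) on sedentary and from 5711 to 8442 (median 6202) on exercised arrays. Of the sedentary arrays, 5 lay above every exercised array, array 4 (7217) lay among them, and array 5 (5308) was the lowest of all 14. The difference was -0.71 (SE 0.20, adjusted p = 0.0541), with means of 11243 ± 3593 (n = 7) and 6552 ± 958 (n = 7). Another of its probe sets passed when all probe sets were tested (-0.71, SE 0.17, adjusted p = 0.0268), and the third differed by -0.68 (SE 0.20, adjusted p = 0.0708).

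Its chromosomal neighbour Adamts1, a versican-cutting enzyme with roles in vessel growth, differed by -0.13 (SE 0.14, adjusted p = 0.605), with medians of 3326 and 3294. Adamts4, a further aggrecanase, was at 2169 on sedentary array 5 against 251 to 865 on the other 6, and from 148 to 571 on exercised arrays. It differed by -0.56 (SE 0.37, adjusted p = 0.406), and by -0.27 without array 5. Adamts9, which cuts versican, differed by 0.12 (0.060 without sedentary array 5) and Adamts15 by -0.33 (-0.20 without sedentary array 7), neither past the threshold. Other probe sets of Adamts9 differed by 0.22 and -0.017.

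Adamts12, which cuts the cartilage protein COMP, had signals from 2246 to 4239.6 on sedentary and from 3328 to 5566 on exercised arrays. All exercised values were above the sedentary median, and the difference was 0.34 (SE 0.14, unadjusted p = 0.025, adjusted p = 0.163). Adamts10 and Adamts16 differed by -0.045 and -0.10. Of the ADAMTS-like genes, Adamtsl4, which is tied to fibrillin microfibrils, differed by 0.0046 (SE 0.12, adjusted p = 0.987), and its sign turned negative without sedentary array 5 (-0.054). Adamtsl1, Adamtsl3 and Adamtsl5 differed by 0.019, -0.064 and -0.34. Another probe set of Adamtsl1 (-0.18, SE 0.20) and of Adamtsl5 (0.16, SE 0.19) had the opposite sign. Over all tested genes of these families, 24 other probe sets passed the filter, and 19 had the sign of the chosen one.

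The gelatinases had opposite signs. Mmp2, the gelatinase of stromal cells, had signals from 4324 to 12693 (median 10444) on sedentary and from 9266 to 18860.1 (median 10713) on exercised arrays. The groups overlapped, with sedentary arrays 7 and 5 lowest and exercised array 7 highest. The difference was 0.39 (SE 0.22, adjusted p = 0.306), and 0.22 without sedentary array 7. Mmp9, the gelatinase of leukocytes, had all 7 exercised values (1672 to 2176) below the sedentary median of 2401, with a difference of -0.23 (SE 0.15, adjusted p = 0.383), and of -0.15 without sedentary array 5. Another probe set of Mmp9 differed by -0.056 (SE 0.25).

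Mmp14, the membrane-bound MMP that activates MMP2, differed by 0.14 (SE 0.14, adjusted p = 0.580), by 0.059 without sedentary array 7 and by 0.052 without exercised array 7. Mmp23, which is shed from the membrane when activated, had a difference of -0.24 (SE 0.11, unadjusted p = 0.0377, adjusted p = 0.198), with all 7 exercised values below the sedentary median. Mmp16 and Mmp24, both anchored in the membrane, differed by -0.11 and -0.18.

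Mmp3, the stromelysin of stromal cells, had like medians in both groups (4845 and 4888) and a wide sedentary spread. Its signals were 14355 and 12653 on sedentary arrays 5 and 4, 401 on sedentary array 7, 4556 to 5522 on the other 4 sedentary arrays, and 3567 to 7032 on exercised arrays. The difference was 0.033 (SE 0.56, adjusted p = 0.981), and -0.53 (adjusted p = 0.240) without sedentary array 7. Mmp7, the matrilysin of epithelia, was at 4968 on sedentary array 7 and from 81.8 to 519 on the other 13, with a difference of -0.16 that was 0.50 without that array. Mmp8, the collagenase of neutrophils, was at 1446 on sedentary array 5, against 351 to 893 on the other 6, and differed by -0.37 (SE 0.26, adjusted p = 0.421), and by -0.18 without that array. Mmp12, the elastase of macrophages, ranged from 187 to 1067 on sedentary and from 30.6 to 1952 on exercised arrays and differed by 0.13 (SE 0.60, adjusted p = 0.922). Mmp11 and Mmp19 differed by 0.0034 and -0.0066, the latter positive after quantile normalisation (0.028).

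Of the 9 neighbouring genes on chromosome 9, Mmp3, Mmp8, Mmp10 and Mmp13 had their highest signal on sedentary array 5, and the other 5 did not. Mmp13, the main interstitial collagenase of rodents, was among the dim genes, with 337 on that array, 86.8 to 189.6 on the other 6 sedentary arrays and 16.6 to 105.1 on exercised arrays. With no filter on signal it was the only gene of the 46 to be called (-1.01, SE 0.26, adjusted p = 0.0442), where 0.830% of all genes were called lower, at signals close to the 46.7 units added before the log. Mmp10 was at 196 on sedentary array 5, against 74.9 to 171 elsewhere.

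The lysyl oxidases also differed in sign. Lox, the founding enzyme of the family, had signals from 3985 to 6605 (median 4821) on sedentary and from 2869.9 to 4900.1 (median 3799.7) on exercised arrays. Of the exercised arrays 4 were below every sedentary array, and sedentary array 5 was the highest. The difference was -0.38 (SE 0.13, unadjusted p = 0.0109, adjusted p = 0.107), another probe set gave -0.41, and no alternative brought it past the threshold (adjusted p 0.0569 to 0.202). Loxl1, which acts on elastic fibres, had medians of 10710.3 and 13330 and differed by 0.27 (SE 0.17, adjusted p = 0.358). All 7 of its exercised values were above the sedentary median, and so were those of Loxl4, which differed by 0.42 (SE 0.29, adjusted p = 0.427) at signals near the filter. Loxl3 differed by -0.18 (SE 0.12, adjusted p = 0.405) and by -0.12 without sedentary array 5, with the highest value on sedentary array 5.

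The 14 dim genes were 6 MMPs, 7 ADAMTS genes and Adamtsl2, with mean signals from 37.7 (Adamts19) to 356.9 (Mmp17), just under the filter, while the dimmest tested gene, Mmp11, had 417. Mmp1a, Mmp1b, Mmp10 and Mmp20 had no signal over 220.7 on any array. Without the filter 3 of the 14 had an unadjusted p under 0.05. Mmp13 and Adamts8 (-0.54, adjusted p = 0.24) were lower, where 8.69% of all 18193 genes were, and Adamts18 (0.67, adjusted p = 0.277) was higher, where 9.01% were. Adamts3, which trims procollagen, differed by 0.18, Adamts6 by -0.25, Adamts7 by -0.36, Adamts20 by -0.54 and Adamtsl2 by -0.61. Mmp1a, Mmp1b and Mmp10 differed by 0.31, 0.50 and 0.11, Mmp17 and Mmp20 by -0.097 and -0.036, and Adamts19 by 0.13. None of these 11 was called.

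Single arrays carried much of the spread. Over the 32 tested genes, sedentary array 5 had the highest value of all 14 arrays in 7 genes (Timp1, Adamts4, Lox, Loxl3, Mmp3, Mmp8 and Mmp9) and the lowest in 8 (Timp2, Timp3, Timp4, Adamts5, Adamts9, Adamts12, Adamtsl3 and Adamtsl4). Sedentary array 7 was highest in 6 (among them Mmp7, Timp4 and Adamts5) and lowest in Mmp2, Mmp3 and Mmp14. Exercised array 7 was highest in 7, including Mmp2, Mmp14, Timp2, Timp3 and Loxl1. Leaving out 1 array moved the difference by over 1.5 times or turned its sign in 23 of the 32 genes, with a turned sign in 9. The genes outside these 23 were Timp3, Timp4, Adamts5, Adamts12, Lox, Loxl1, Loxl4, Mmp23 and Mmp24.

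**Figure D4:**
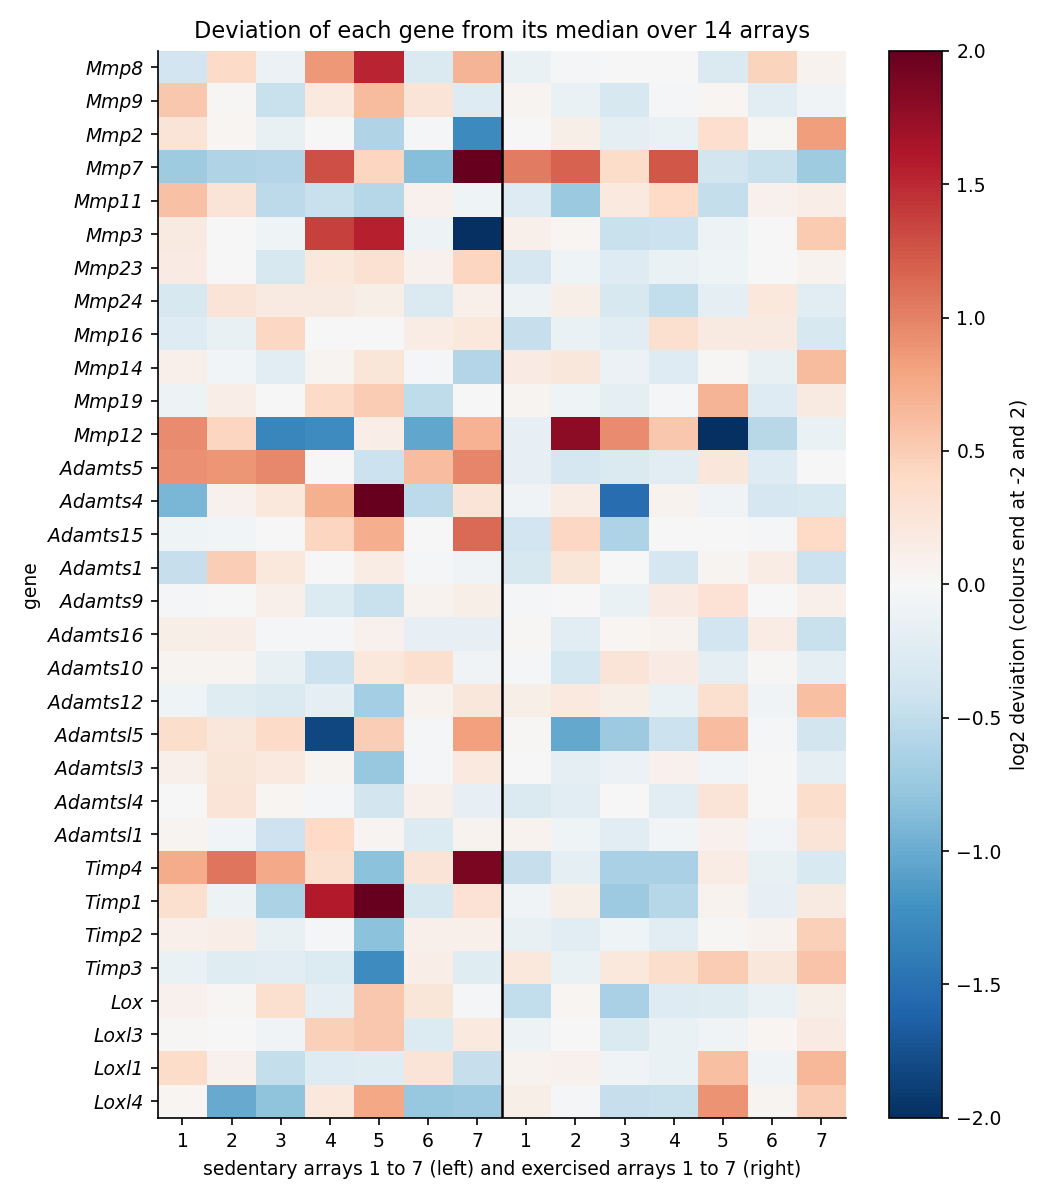
Deviation of each tested gene from its own median over the 14 arrays (colour, log2 units, ending at -2 and 2), with sedentary arrays 1 to 7 on the left of the line and exercised arrays 1 to 7 on the right. Sedentary array 5 is red for Timp1, Adamts4, Mmp3 and Mmp8 and blue for Timp3, Timp4 and Timp2, and sedentary array 7 is dark blue for Mmp3 and dark red for Mmp7 and Timp4.

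Markers of other cells differed between these arrays and between the groups. In exercised tissue all 12 tested inflammatory cytokine and chemokine genes were lower on average (median difference -0.66), 1 of them called. All 5 neutrophil markers were lower (median -0.45, 0 called), and 9 of 10 adipocyte markers were higher (median 0.12, 0 called). Of 5 epithelial markers 2 were higher and 3 lower, with 1 called. Over all genes tested 4.002% were called higher and 1.53% lower. The mean log2 level of 12 tested inflammatory cytokine and chemokine genes was 12.78 on sedentary array 5, 9.13 to 9.58 on the other 6 sedentary arrays and 8.84 to 9.32 on exercised arrays, with summed signals of 132098, 7225 to 11598 and 6181 to 10022. For 5 neutrophil markers these means were 12.82, 9.40 to 11.11 and 8.77 to 10.29, and summed signals were 68618, 3337 to 15809 and 2497 to 6689, while 3 more neutrophil markers (Elane, Cxcr2 and Camp) were under the filter. The 10 adipocyte markers tested, which mark the labelled tissue, were present on all arrays with means of 14.24 on sedentary array 5 and 14.79 to 15.34 on the others, and 0 of them had a signal of 0. On sedentary array 7 the mean of the 2 mesothelial markers tested was 12.46, against 6.88 to 8.62 on the other 13 arrays (summed signals 12299 and 173 to 697). Msln, Wt1 and Krt19 were under the filter. The 2 tested markers were dim on the other 13 arrays and passed the filter mainly through sedentary array 7. This contrast is therefore partly set by the filter. All 17 skeletal muscle markers were higher on average in exercised tissue (median difference 2.78). Of these 0 were called, where 4.002% of all genes tested were called higher. At an unadjusted p under 0.05 13 of the 17 were higher, where 11.3% of all genes tested were. The mean levels of the 17 markers overlapped, at 8.44 to 13.18 on sedentary and 8.77 to 15.25 on exercised arrays. Summed signals were 8736 to 306693 on sedentary and 11231 to 772251 on exercised arrays. All 7 brown fat markers were higher on average in exercised tissue (median difference 2.21). Of these 5 were called, where 4.002% of all genes tested were called higher. The mean level of the 7 was 8.98 to 11.97 on sedentary and 12.01 to 13.48 on exercised arrays. The groups did not overlap in it, where 2.68% of all genes tested, taken singly, did not overlap. Summed signals were 4426 to 51147 and 51023 to 157244. All 13 macrophage markers tested were lower on average in exercised tissue (median difference -0.28). Of these 1 was called, where 1.53% of all genes tested were called lower. Their mean levels were 13.61 and 13.46 on sedentary arrays 5 and 4, the arrays highest in Timp1 and Mmp3. On the other 12 arrays these levels were 12.54 to 13.06. Their summed signals were 134821 to 210725 on sedentary and 126317 to 172847 on exercised arrays. The 8 lymphocyte markers tested were all lower on average (median difference -0.63), and 0 were called, against the same 1.53%. Their mean levels were 13.04 on sedentary array 5, 9.23 on sedentary array 7 and 9.06 to 12.50 on the others. Summed signals were 17556 to 113898 on sedentary and 14356 to 57602 on exercised arrays. For 8 fibroblast and progenitor markers mean levels were 12.97 and 13.36 on sedentary arrays 7 and 5, and 14.02 on exercised array 7. The other arrays had 13.41 to 13.78. Means of 5 smooth muscle, 5 epithelial and 6 endothelial markers were highest on sedentary array 7, at 13.37, 10.21 and 12.21. On the other 13 arrays they were 12.23 to 12.51, 8.55 to 9.66 and 11.22 to 11.96. The part of brown fat, macrophage, lymphocyte, inflammatory, neutrophil, mesothelial, adipocyte, fibroblast, smooth muscle, epithelial and endothelial content in the values above was not tested.

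Without sedentary array 5, limma called 3 of the 32 genes. Timp3 rose (0.44, SE 0.11, adjusted p = 0.0251), so that 1 of 32 (3.12%) was higher, where 3.84% of all genes were, a share near the background. Adamts5 (-0.87, SE 0.15, adjusted p = 0.00392) and Timp4 (-1.16, SE 0.22, adjusted p = 0.00781) fell, so that 2 of 32 (6.25%) were lower, where 1.71% of all genes were. With sedentary array 7 left out instead, the difference of Timp4 was smaller, at -0.71 (adjusted p = 0.0903). With the muscle markers as a covariate the differences of Timp3, Adamts5 and Timp4 were 0.58, -0.78 and -0.96, of like size, and 0 of the 32 passed (adjusted p = 0.209, 0.139 and 0.232). Leaving out sedentary array 4 brought Adamts5 past the threshold (adjusted p = 0.0393), and leaving out sedentary array 6 (adjusted p = 0.0411) or exercised array 2 (adjusted p = 0.0385) did so for Timp3.

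**Figure D5:**
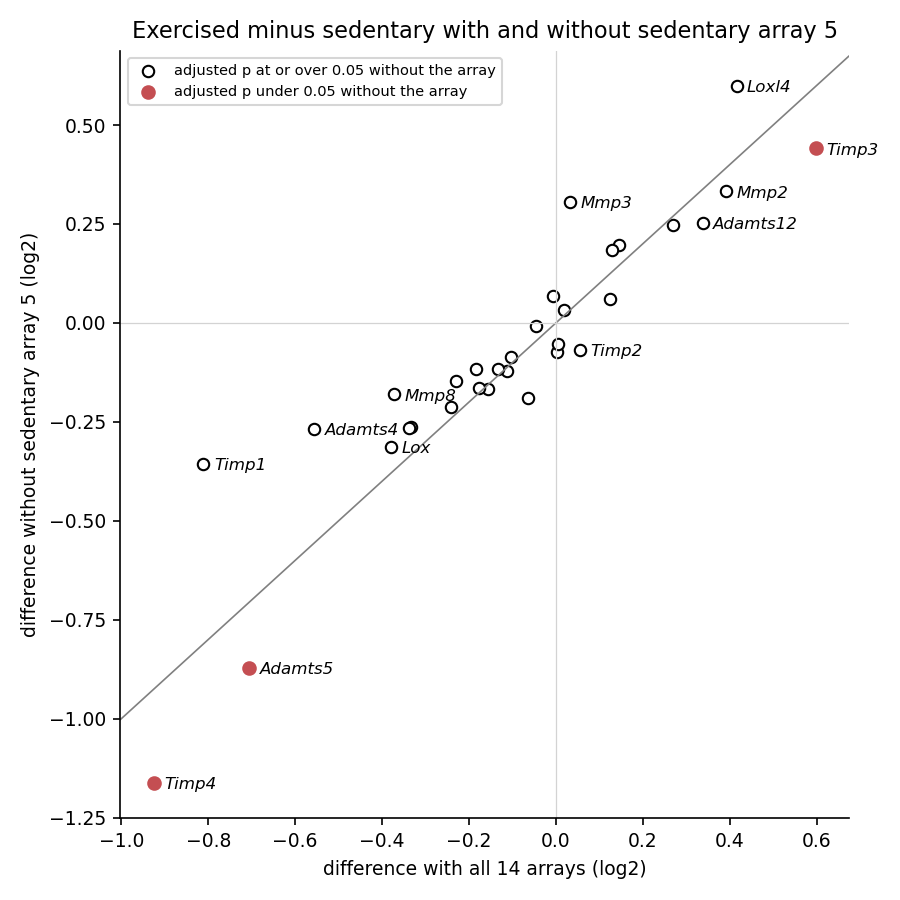
Exercised minus sedentary difference of the 32 tested genes with all 14 arrays (x axis) and without sedentary array 5 (y axis), both log2; filled points passed the threshold without that array, and the line marks equal values. Timp1 goes from -0.81 to -0.36 and Timp4 from -0.93 to -1.16.

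Companions of these enzymes were read from lists of related genes. In the plasminogen system, whose product plasmin activates several MMPs, 2 of 8 tested genes fell (1.53% of all genes did) and 0 rose, with a median of -0.26. These were Anxa2 (28613 ± 4458 and 19900.4 ± 2479, n = 7 each; -0.52, SE 0.11, adjusted p = 0.0141, a call kept in 26 of 28 alternatives) and S100a10 (19642 ± 2160 and 16083 ± 1412, n = 7 each; -0.28, SE 0.080, adjusted p = 0.0494). Their proteins form the annexin A2 complex that holds plasminogen at the cell surface. The call of Anxa2 ended with the mean of its probe sets (-0.26, adjusted p = 0.163) and with the replicate block (adjusted p = 0.053). That of S100a10 held in 8 of 28 alternatives (adjusted p 0.0077 to 0.268). It ended with the mean of its probe sets, where the difference was -0.11, and it ended when any array other than sedentary array 4 or exercised array 7 was left out (0.0569 to 0.102).

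No other companion list had a called gene. Among 19 tested collagen genes and modifying enzymes, 6 differences were positive and 13 negative (median -0.19), with 0 called by limma and, at an unadjusted p under 0.05, none higher and 6 (31.6%) lower, against 10.5% of all genes tested. Serpinh1, the collagen chaperone, differed by -0.42 (SE 0.12, adjusted p = 0.05, not past the threshold), and Col4a2, of basement membranes, by -0.33 (SE 0.093, adjusted p = 0.0525), which passed without sedentary array 5 (-0.38, adjusted p = 0.0161). Of 15 proteoglycans and glycoproteins 0 were called and 5 (33.3%) were lower at an unadjusted p under 0.05, against the same 10.5%, with Bgn at -0.35 (adjusted p = 0.111) and the basement membrane protein Nid2 at -0.53 (adjusted p = 0.115, and -0.66, adjusted p = 0.019, without sedentary array 5). In elastic fibres (10 tested, median -0.16) 0 were called. At an unadjusted p under 0.05 1 (10%) was lower, against 10.5%, a share near the background. That gene was Efemp1 at -0.34 (adjusted p = 0.174), and Mfap2 differed by 0.25.

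Of 9 ADAM sheddases 0 were called, and an unadjusted p under 0.05 was met by 1 higher gene (11.1%, against 11.3% of all genes tested) and by 3 lower genes (33.3%, against 10.5%); Adam12 differed by 0.39 (adjusted p = 0.0746) and Adam9 by -0.23 (adjusted p = 0.107). Of 11 other regulators of metalloproteases 0 were called. At an unadjusted p under 0.05 1 (9.09%) was higher, against 11.3%, a share near the background. That gene was Bsg, the surface inducer of MMPs, at 0.34 (adjusted p = 0.0769), while Thbs2 differed by 0.39 (adjusted p = 0.315). Of 9 cathepsins and cystatins 0 were called and 3 (33.3%) were lower at an unadjusted p under 0.05, again against 10.5%, with Ctsh at -0.39 and Ctsl at -0.20. Among 7 AP-1 subunits, the factors that bind TGANTCA, 0 were called. An unadjusted p under 0.05 was met by 1 higher gene (14.3%, against 11.3%) and 1 lower gene (14.3%, against 10.5%), shares near the background. Fos differed by 1.04 (SE 0.35, adjusted p = 0.103) and Fosl2 by -0.41 (SE 0.14, adjusted p = 0.0934).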

How the data were processed

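The authors deposited 1 microarray intensity for each of 45101 probe sets on 14 arrays, made with MAS5 on biotinylated cRNA, per the submitters' processing notes and the labels' protocols; no source used here gives its version or settings. Values are linear, and their trimmed mean was equal on every array (array medians 531.3 to 617.4), so differences in total RNA are removed. The number of arrays, 7 a group, limits precision. Intensities were transformed as log2(signal + 46.7), 46.7 being the 10th percentile of all values. Probe sets with a mean under the 40th percentile (389.8) and 64 control probe sets were left out. By the platform annotation, 34945 probe sets carry 1 symbol, 932 several and 9160 none; 34741 were matched by Entrez identifier to a RefSeq table of GRCm38.p6. The 7 exercised and 7 sedentary arrays entered a limma 3.58.1 fit (R 4.3.3; lmFit, then eBayes with a variance trend). Its two-sided p-values were adjusted by Benjamini-Hochberg over 12944 genes, with a threshold of 0.05. The code was tested on simulated data of 12944 genes. Genes singled out were those past the threshold, the 8 with the largest differences and a fixed panel; companion lists gave their called genes, up to 4, or the 2 with the smallest p. The genes and lists were chosen with earlier results of these data known. Alternatives were other normalisations, pseudocounts, filters, probe set summaries, variance models, array weights, the replicate block, a muscle covariate and left-out arrays.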

Additional observations from a re-analysis of the deposited data

Results flagged for a closer look

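Sample values far from the rest of their group were found in 8 of 64 groups of 7 examined (32 genes in 2 groups). The rule was a Dixon ratio of gap to range over 0.568 on the log2 scale. It flags about 1 in 20 groups of independent normal values. The 64 groups share the same 14 arrays, so these shares cannot be compared as a test. On sedentary array 5 the flagged low signals were those of Timp2 (11816, the others 18893 to 22986), Timp3 (3130, the others 6235 to 8253) and Adamtsl3 (518, the others 882 to 1079). On sedentary array 7 Mmp3 was lowest at 401 (the others 4556 to 14355) and Mmp7 highest at 4968 (the others 81.8 to 519). Mmp7 was among the tested genes only because of that high signal. Adamtsl5 was lowest on sedentary array 4 at 109 (the others 490.4 to 919.5). Among exercised arrays, Timp2 was highest on array 7 at 29181 (the others 17733 to 21854), and Adamts4 was lowest on array 3 at 148 (the others 397 to 571).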

How the results depend on the processing

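Of 28 alternatives, 13 called at least 1 of the 46 genes and the largest number called was 3. All 14 arrays gave 0, and leaving out 1 array gave 0 to 3. The count was 1 after quantile normalisation (Adamts5), 1 after centring on array medians (Timp3), 1 with no filter (Mmp13), 2 with the filter at the 60th percentile (Adamts5 and Timp3), 1 with the mean of probe sets (Adamts5), 3 with array weights and 3 without sedentary arrays 5 and 7 together (Adamts5, Timp3 and Timp4 in both). It was 2 (Adamts5 and Timp4) without sedentary arrays 4 and 5 together and 2 without sedentary arrays 4, 5 and 7 together, both chosen after seeing the data. Over all genes tested, 716 were called (518 higher, 198 lower), 402 to 853 when 1 array was left out, 211 with the muscle markers as a covariate and 161 with the replicate block. Counts over 1.5 times smaller came without exercised array 1 (424), 3 (410), 5 (412), 6 (477) or 7 (402). Centring gave 564 higher and 115 lower. The labels do not say whether replicate numbers pair the samples, and the correlations that follow cannot settle it. Deviations of same-numbered arrays correlated between -0.43 and 0.38, and 1 of 7 numbers was matched best by its own number. With the replicate block 0 genes of these families were called. Signs changed in 7 of the 18 genes singled out, none of them called with all arrays, and the cause was not tested. With 1 array left out, differences ran from -0.11 to 0.068 for Mmp19, -0.18 to 0.60 for Mmp12, -0.068 to 0.092 for Timp2, -0.057 to 0.051 for Adamtsl4 and -0.53 to 0.30 for Mmp3. After quantile normalisation log2 differences were Timp2 -0.052 and Mmp19 0.028. After centring the log2 difference was Mmp19 0.032. With the 25th percentile as pseudocount the log2 difference was Mmp3 -0.0071. With the mean of probe sets the log2 difference was Timp2 -0.047. With array weights log2 differences were Timp2 -0.057, Mmp3 -0.042, Adamtsl4 -0.12 and Mmp19 0.027. With the muscle covariate log2 differences were Timp2 -0.0098, Mmp3 -0.10, Adamtsl4 -0.088 and Mmp19 0.11. Without sedentary arrays 5 and 7 log2 differences were Timp2 -0.057, Mmp3 -0.32, Adamtsl4 -0.094 and Mmp19 0.072. Without arrays 4 and 5 log2 differences were Timp2 -0.081, Adamtsl4 -0.068, Mmp19 0.15 and Mmp12 -0.016. Without arrays 4, 5 and 7 log2 differences were Timp2 -0.070, Mmp3 -0.042, Adamtsl4 -0.12, Timp1 0.018, Mmp19 0.17 and Loxl3 0.024. Signals near the filter, at under 389.8 units on some arrays in 8 of the 32 tested genes, limit what can be seen in them.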
